A study of Mus musculus with 4 samples.

Results

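The transcription factor Myc and 9 genes of nucleolar ribosome biogenesis (Ncl, Npm1, Fbl, Nop56, Nop58, Dkc1, Nolc1, Polr1b and Bop1) were followed in muscle stem cells (MuSCs) of overloaded muscle. They were the rows with these symbols in a table of 19353 genes, in which each symbol occurred. RNA-seq libraries were made from MuSCs of the plantaris muscle, 2 from sham-operated muscle and 2 from muscle overloaded by tenotomy, collected 4 days after surgery. In tenotomy the distal tendons of the gastrocnemius and soleus were cut, so that the plantaris bore their load, and in sham surgery the skin was cut and the tendons were left. All mice were Pax7-CreERT2:Rosa-YFP and had received tamoxifen, which turns on the Cre recombinase made under the control of Pax7 and thereby yellow fluorescent protein (YFP) in Pax7-expressing cells. The sorted population was therefore defined by Pax7 expression at the time of tamoxifen, and the age of the mice was not given in the sources used here. YFP-positive cells were sorted at 100 cells per tube.

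Libraries were prepared by CEL-Seq2, which reads the poly(A) end of transcripts and labels each molecule, before amplification, with a unique molecular identifier (UMI). A count is thus a number of distinct captured molecules. Depth was 269683 and 260488 UMIs for the sham libraries and 387955 and 483528 UMIs for those of tenotomy. Per sorted cell this was 2697 and 2605 UMIs in sham against 3880 and 4835 UMIs after tenotomy, so the groups did not overlap in depth. UMIs per tube depend on sequencing depth and capture as well as on RNA per cell, and these were not separated. A count of 3 corresponded to between 6.20 and 11.5 CPM (a count relative to the total of its library), depending on the library. It is not stated that replicate libraries were from separate mice, so p-values measure only the spread between these libraries, which may be technical. Nor is it stated whether sham and tenotomy libraries shared mice. In other experiments of the study the sham muscle was the contralateral one. Replicates differed by slightly more than counting noise (chi-square over its degrees of freedom 1.31 for sham and 1.5 for tenotomy), and libraries of different groups by much more (6.35 to 7.86).

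The libraries carried the markers of the labelled cell type. All 10 MuSC markers examined were present, with 1662 and 1413 UMIs in total in sham and 2048 and 2318 after tenotomy (Sdc4, a syndecan, had the most over the 4 libraries, and Myf5, a myogenic factor, had more than Sdc4 after tenotomy), and Pax7 itself had 118 and 107 UMIs in sham, then 108 and 137 after tenotomy. As a share, the MuSC markers were at 61.6 and 54.2 per 10000 UMIs in sham and 52.8 and 47.9 after tenotomy, with 2 of the 10 passing as higher and 5 as lower (median log2 fold change -0.56, on the TMM scale described further on). On the other scales used here, offsets for abundance (median 0.44) and UMIs per tube (median 0.40), 5 were higher and 2 lower. Summed markers of leukocytes, mural cells, myofibres and endothelial cells were more frequent after tenotomy in each library, also as a share. The 12 leukocyte markers summed to 2 and 6 UMIs in sham and to 84 and 216 UMIs after tenotomy, or 0.0742 and 0.230 per 10000 UMIs, then 2.17 and 4.47. Lyz2 was the most abundant of these, with 0 UMIs in both sham libraries and 17 and 38 after tenotomy, and 9 of the 12 were at 0 in both sham libraries. The pan-leukocyte gene Ptprc had 0 and 1 UMIs in sham, then 1 and 4 after tenotomy.

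The 7 mural cell markers summed to 181 and 161 UMIs in sham and to 478 and 691 UMIs after tenotomy (6.71 and 6.18 per 10000, then 12.3 and 14.3), most of them from Acta2 (115 and 109, then 356 and 493). The 5 myofibre markers summed to 325 and 175 UMIs in sham and to 1076 and 1271 after tenotomy (12.1 and 6.72 per 10000, then 27.7 and 26.3), with Acta1 as the most abundant (120 and 66, then 299 and 342). The 8 fibroblast markers gave 809 and 742 UMIs in sham, then 1148 and 1259 after tenotomy, led by Col3a1 (508 and 461, then 618 and 683), but as a share the groups overlapped (30.0 and 28.5 per 10000, then 29.6 and 26.0). Pdgfra, which defines these cells, had 0 UMIs in sham and 2 and 0 after tenotomy. Ly6a, the gene of Sca-1, had 1 and 0 UMIs in sham, then 22 and 41 after tenotomy, and Mfap5 had 0 and 1, then 9 and 4. Endothelial markers gave 18 and 16 UMIs in sham, then 44 and 43 after tenotomy, with Tek highest over the 4 libraries (10 and 12, then 5 and 11) and Cdh5, a cadherin of endothelial junctions, at 3 and 1, then 14 and 11. As a share the list was at 0.668 and 0.614 per 10000, then 1.13 and 0.889, and Cldn5 was at 0 in sham and at 1 and 1 after tenotomy. The part of such RNA in the results was not tested. In these bulk tubes, fewer cells that express a gene and less RNA of it per cell cannot be told apart.

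Ribosomes are built in the nucleolus, where RNA polymerase I transcribes the precursor of ribosomal RNA and a large set of proteins and small nucleolar RNAs (snoRNAs) modifies, cuts and folds it. Myc, a basic helix-loop-helix factor that binds E-box sequences together with Max, is known as an activator of many of these genes in growing cells, and its mRNA and protein are short-lived. Quiescent MuSCs are small cells with little RNA that enlarge when they are activated.

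The promoters of Nop58, Nop56 and Nolc1 are shown, whose genes encode proteins of snoRNA particles or a protein that binds them. Dkc1 also encodes a protein of such particles, and its promoter was searched but is not shown. Nop58, Nop56 and Nolc1 passed as lower after tenotomy on the TMM scale described further on, Nop58 by more than the others. Dkc1 did not pass, so the promoters shown are those of genes called lower. The sequences are from RefSeq (GRCm38.p6), run from 250 bases before to 50 bases after the start of each gene, and lie at chr1:59684756-59685055 (Nop58), chr2:130274162-130274461 (Nop56) and chr19:46075597-46075896 (Nolc1), all on the plus strand. Capitals mark TCTCGCGA in Nop58 and CGCGTG, the reverse complement of CACGCG, in Nolc1. Nop56 has no capitals.
Nop58: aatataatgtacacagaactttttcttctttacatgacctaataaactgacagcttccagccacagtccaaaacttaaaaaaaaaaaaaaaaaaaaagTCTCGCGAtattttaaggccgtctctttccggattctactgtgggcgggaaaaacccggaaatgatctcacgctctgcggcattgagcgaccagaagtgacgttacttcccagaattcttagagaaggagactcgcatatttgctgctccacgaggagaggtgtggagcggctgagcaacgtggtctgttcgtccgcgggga
Nop56: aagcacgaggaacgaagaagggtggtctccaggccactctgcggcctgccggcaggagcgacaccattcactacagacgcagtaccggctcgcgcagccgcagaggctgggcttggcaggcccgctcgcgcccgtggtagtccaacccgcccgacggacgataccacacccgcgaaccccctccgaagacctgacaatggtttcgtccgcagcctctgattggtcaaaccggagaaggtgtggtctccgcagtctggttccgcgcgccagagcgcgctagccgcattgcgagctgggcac
Nolc1: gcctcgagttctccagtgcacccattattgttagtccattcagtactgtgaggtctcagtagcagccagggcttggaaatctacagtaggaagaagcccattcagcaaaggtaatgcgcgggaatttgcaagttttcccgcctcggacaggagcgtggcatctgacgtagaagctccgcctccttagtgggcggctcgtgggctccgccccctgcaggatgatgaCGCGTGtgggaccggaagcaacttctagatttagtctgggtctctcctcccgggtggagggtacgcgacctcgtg

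The palindrome CACGTG, the E-box that Myc with Max binds best, was searched on both strands, and it was in none of the 6 promoters found in the table (Nop58, Nop56, Nolc1, Ncl, Dkc1 and Polr1b) and in 7.15% of all 32851 promoters. CACGCG, a variant E-box, was in 9.27% of all promoters and in that of Nolc1 alone among the 6, where it began 25 bases before the start. TCTCGCGA, which was looked for after the sequence had been seen, was in 0.995% of all promoters and in that of Nop58 alone among the 6, where it began 152 bases before the start. Its reverse complement is TCGCGAGA, and both hold the palindrome TCGCGA, so matches on the strands can overlap. The G and C content of the 6 promoters ran from 45.3% for Nop58 through 52.7% for Polr1b, 53.0% for Dkc1, 57.0% for Nolc1 and 66.0% for Nop56 to 69.3% for Ncl, against a median of 52.7% over all promoters. Such matches describe the letters in these windows only. Promoters of Myc, Npm1, Fbl and Bop1 were not analysed here.

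Of the 10 genes, 9 had enough counts to be tested. On the TMM scale, 6 were lower after tenotomy (Nop58, Myc, Nop56, Ncl, Nolc1 and Fbl). Only 1 was higher (Bop1), and 2 did not pass the test (Npm1 and Dkc1). Nop56, Ncl, Nolc1 and Fbl had log2 fold changes of 0.15 to 0.25 as UMIs per tube and did not pass there. Scaled by library sizes alone, Nop56 (-0.52, edgeR adjusted p = 0.19) and Fbl (-0.43, edgeR adjusted p = 0.18) did not pass either. Dkc1 passed as higher on that scale (0.83, edgeR adjusted p = 0.076). Levels here are CPM scaled by TMM factors, which assume that most genes keep their share of the library. Tests are by the quasi-likelihood method of edgeR, with p-values adjusted by Benjamini-Hochberg over all 7228 genes tested and a threshold of 0.1. The comparison was broad: 52.1% of all genes tested passed, 25.8% higher and 26.3% lower. The log2 fold changes of the 9 tested genes of the group had a median of -0.78, against 0.051 over all genes tested. Without tenotomy replicate 2 that median was -0.53, and without sham replicate 1 Dkc1 also passed as higher. DESeq2 called the same genes except Nop56 and Fbl.

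As a share of all UMIs, the 10 genes made up 0.315% (95% Wilson interval 0.294 to 0.337) and 0.322% (0.301 to 0.345) in the sham libraries. After tenotomy they made up 0.235% (0.220 to 0.251) and 0.196% (0.184 to 0.209). Both tenotomy libraries were below both sham libraries, and the intervals, which cover counting error only, did not meet. Without Myc the other 9 genes made up 0.254% and 0.261% in sham and 0.209% and 0.172% after tenotomy, in the same order. The number of UMIs itself was not lower, with 849 and 840 in sham and 911 and 950 after tenotomy.

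**Figure D1:**
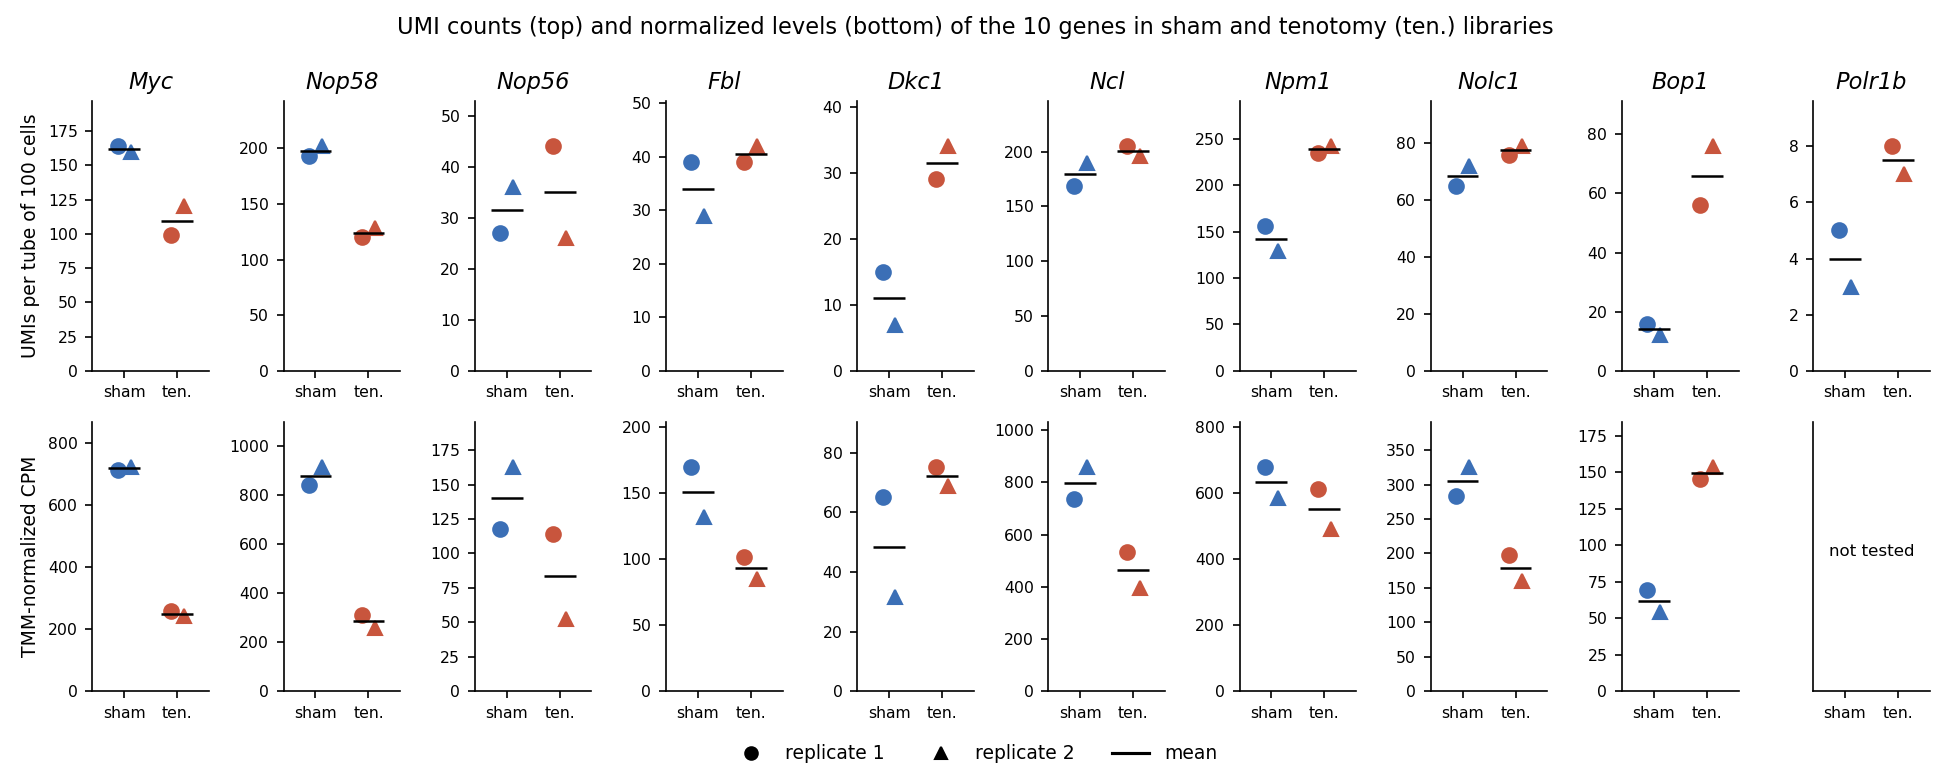
UMI counts per tube (top) and TMM-normalized CPM (bottom) of Myc and the 9 nucleolar genes in each of the 4 libraries, sham in blue and tenotomy in red, with a bar at the mean of 2 libraries. Myc and Nop58 are lower after tenotomy in both rows, Bop1 and Dkc1 are higher in both, and Nop56, Fbl, Ncl, Npm1 and Nolc1 differ between the rows; the level of Polr1b is not drawn because it had too few counts to be tested.

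Myc (ENSMUSG00000022346, chr15:61985391-61990374 on the plus strand of GRCm38, with 3 exons in its longest coding transcript and no overlapping gene in GENCODE M21) had 164 and 160 UMIs in sham and 99 and 120 UMIs after tenotomy. Its level was 714 and 725 CPM in sham and 257 and 243 CPM after tenotomy, a mean of 719 ± 7.74 (SD, n = 2) against 250 ± 10.2 (SD, n = 2). Both tenotomy libraries lay far below both sham libraries. The log2 fold change was -1.52 (SE 0.16, 95% interval -1.87 to -1.18, edgeR adjusted p = 1.8e-06), and 5.27% of the genes tested had a lower value.

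Fewer Myc molecules were captured even though the tenotomy tubes held more UMIs in all. Among the genes tested, 7.9% had fewer UMIs in each tenotomy library than in either sham library, and 72.7% had more. Of the 10 genes, 2 (Myc and Nop58) were of the first kind and 6 of the second (Ncl, Npm1, Nolc1, Dkc1, Bop1 and Polr1b). Compared per tube without any scaling, the log2 fold change of Myc was -0.56 (edgeR adjusted p = 0.018), where the median gene stood at 1.01. Over the 18 other settings tried, the value for Myc lay between -1.59 and -0.56 and passed in each.

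The 5 genes whose profile over the 4 libraries was most like that of Myc were Zfp36, Ier5, Fosl2, Baz1a and Gas1. They were picked among 1133 genes with a mean level within 1 log2 unit of Myc, by the Euclidean distance between log2 CPM values centred on each gene's mean. Zfp36, which encodes an mRNA-decay protein, was nearest (distance 0.043), with 257 and 241 UMIs in sham, then 151 and 185 after tenotomy and a log2 fold change of -1.53. Ier5, an immediate early gene, followed at 0.072, with 221 and 212 UMIs, then 125 and 158. Fosl2, a subunit of the transcription factor AP-1 family, lay at 0.082 (216 and 208 UMIs, then 133 and 169). Baz1a, a subunit of chromatin-remodelling complexes, and Gas1, a membrane protein first known from growth-arrested cells, lay at 0.086 and 0.094. All of the 5 had fewer UMIs in both tenotomy libraries, as Myc had, but this followed from how they were picked and is no further likeness. The likeness rests on 4 libraries in 2 groups.

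Of 12 partners, antagonists and paralogs of Myc in the table, 7 had enough counts to be tested, 2 were lower, 0 were higher and 5 did not pass, with a median log2 fold change of -0.092. Per tube 4 were higher and 1 lower (median 0.86). Mlxip, which encodes MondoA, a partner of Mlx, was lower, at 157 ± 11.3 CPM in sham and 46.8 ± 14.7 CPM after tenotomy (n = 2 each, log2 fold change -1.77, edgeR adjusted p = 2e-04). Mga, a Max-binding repressor, was the other, with a small difference (log2 fold change -0.42, edgeR adjusted p = 0.097). Its call was lost whichever library was left out, while its log2 fold change lay between -0.47 and -0.31. The value for Mga stood at -0.17 with offsets for abundance (which remove the trend of fold changes with abundance) and at 0.54 per tube.

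Max, the obligate partner of Myc, had 29 and 20 UMIs in sham, then 49 and 85 after tenotomy. Its level was 108 ± 25.2 CPM in sham and 150 ± 31.6 CPM after tenotomy (log2 fold change 0.48, SE 0.26, edgeR adjusted p = 0.15). The repressors Mxd1, Mxd4, Mnt and Mxi1 had log2 fold changes between -0.17 and 0.077, none past the threshold. The paralogs Mycn (1 and 7 UMIs in sham, 6 and 18 after tenotomy) and Mycl (0 and 2, then 7 and 18) had too few counts to be tested.

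Genes that act on the Myc protein or its stability moved in both directions, 3 higher and 3 lower of 8 tested on the TMM scale, and 4 higher and 2 lower per tube. Pim1, a kinase known to stabilise Myc, had 232 and 207 UMIs in sham, then 149 and 133 after tenotomy, and its level was 974 ± 51.0 CPM against 328 ± 83.5 CPM (log2 fold change -1.58, edgeR adjusted p = 3.8e-06). Huwe1, a ubiquitin ligase that can target Myc, was also lower (581 ± 120.0 CPM, then 199 ± 12.5 CPM, log2 fold change -1.55). Skp2, an F-box protein of another Myc ligase, was higher, from 2 and 2 UMIs in sham to 21 and 26 after tenotomy (log2 fold change 2.54, edgeR adjusted p = 0.0012). Usp28, a deubiquitinase, went from 2 and 2 UMIs to 12 and 24 (log2 fold change 2.16, edgeR adjusted p = 0.0064). With these offsets, Skp2 (1.21) and Usp28 (0.41) no longer passed, and Pim1 (-0.79) and Huwe1 (-0.98) still did. Fbxw7, the F-box protein best known for Myc degradation, had a log2 fold change of -0.37 (edgeR adjusted p = 0.42).

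Of 15 genes widely described as Myc targets outside the nucleolus, 6 were higher, 3 were lower and 6 did not pass, with a median log2 fold change of 0.20. With offsets for abundance 8 were higher and 2 lower (median 0.59), and per tube 11 were higher and 0 lower (median 1.16). Shmt2, a mitochondrial enzyme of serine and glycine metabolism, had 11 and 15 UMIs in sham, then 61 and 74 after tenotomy (log2 fold change 1.41, edgeR adjusted p = 8e-04). Cdk4, the kinase that pairs with D-type cyclins, rose from 158 ± 1.31 CPM to 385 ± 3.31 CPM (log2 fold change 1.29, edgeR adjusted p = 4.8e-05). Both genes had more UMIs in both tenotomy libraries. Odc1, the first enzyme of polyamine synthesis, was lower, at 200 ± 0.642 CPM in sham and 98.6 ± 18.1 CPM after tenotomy (log2 fold change -1.0, edgeR adjusted p = 0.0022). Eif4e, the cap-binding translation factor, was lower as well (174 ± 42.6 CPM, then 62.9 ± 3.01 CPM, log2 fold change -1.46, edgeR adjusted p = 3.9e-04). Neither passed per tube.

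Box C/D particles methylate ribosomal RNA at sites chosen by their snoRNA, and their core holds Nop58, Nop56, the methyltransferase Fbl (fibrillarin) and Snu13. All 4 passed as lower on the TMM scale, by different amounts, and Nop58 alone of them had fewer UMIs in both tenotomy libraries. Nop58 (ENSMUSG00000026020, chr1:59684971-59719044, plus strand, 15 exons) had 193 and 202 UMIs in sham, then 120 and 128 after tenotomy. Its level was 840 and 915 CPM in sham and 312 and 259 CPM after tenotomy (878 ± 53.0 against 286 ± 37.3, SD, n = 2 each). Both tenotomy libraries were below both sham libraries on either scale, with a log2 fold change of -1.63 (SE 0.17, 95% interval -1.98 to -1.27, edgeR adjusted p = 1.2e-06). Per tube it was -0.67 (edgeR adjusted p = 0.0038), and all 18 other settings passed. Nop58 also hosts snoRNA genes.

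Nop56 (ENSMUSG00000027405, chr2:130274430-130279313, plus strand, 12 exons), the partner of Nop58 in the particle, had 27 and 36 UMIs in sham, then 44 and 26 after tenotomy. Its level was 118 and 163 CPM in sham and 114 and 52.7 CPM after tenotomy, so the groups came within a few CPM of each other. The log2 fold change was -0.79 (SE 0.33, 95% interval -1.49 to -0.094, edgeR adjusted p = 0.061), and -0.50 with counts thinned to the smallest library (edgeR adjusted p = 0.19). It was -1.38 without tenotomy replicate 1, -0.25 without tenotomy replicate 2 (edgeR adjusted p = 0.59) and -0.58 without sham replicate 2 (edgeR adjusted p = 0.22), so the call rested on replicate 2 of each group, and per tube it was 0.15. Nop56 shares 5 of the last 500 bases of its transcript with Idh3b on the other strand (42 and 35 UMIs, then 85 and 132). Its transcript end also has near-identical pseudogene copies, so its count is uncertain. AC122861.1 matched 407 bases at 99.8% identity and was not analysed here, and Gm27219 and Gm9432 had at most 2 UMIs in any library.

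Fbl (ENSMUSG00000046865, chr7:28169710-28179269, plus strand, 9 exons) had 39 and 29 UMIs in sham, then 39 and 42 after tenotomy. Its level was 170 and 131 CPM in sham and 101 and 85.1 CPM after tenotomy (log2 fold change -0.70, SE 0.26, 95% interval -1.24 to -0.16, edgeR adjusted p = 0.033). The groups did not overlap in CPM, but 1 library of each had the same 39 UMIs, and per tube the log2 fold change was 0.25 and did not pass. Without sham replicate 1 (-0.54, edgeR adjusted p = 0.24) or without tenotomy replicate 2 (-0.53, edgeR adjusted p = 0.22) Fbl no longer passed either. The end of the Fbl transcript has near-identical copies, so its count is uncertain. Over the last 500 bases, a transcript of Tulp4 matched 399 bases at 100% identity (48 and 48 UMIs, then 80 and 89 for Tulp4 as a whole) and Gm6211 matched 500 bases at 92.6% (6 and 12 UMIs, then 2 and 6). Gm5812 matched 386 bases at 100% and was not analysed here.

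The numbers of captured molecules moved unequally within the particle. Nop58 had 7.15 and 5.61 UMIs per Nop56 UMI in sham and 2.73 and 4.92 after tenotomy, and 4.95 and 6.97 UMIs per Fbl UMI in sham and 3.08 and 3.05 after tenotomy. Both ratios were lower in each tenotomy library than in either sham library, though the Nop56 ratio of tenotomy replicate 2 came close to the sham values. Snu13 had 11 and 9 UMIs in sham, then 9 and 11 after tenotomy (log2 fold change -0.95, edgeR adjusted p = 0.075, and 0 per tube). This call was lost whichever library was left out, while the log2 fold change lay between -1.10 and -0.86. Among the assembly factors of these particles, Ruvbl2, an ATPase of the complex that loads the core proteins, was higher, from 9 and 3 UMIs to 39 and 41 (log2 fold change 1.77, SE 0.43, edgeR adjusted p = 0.0032). The value for Ruvbl2 was 2.69 without sham replicate 1 and 1.18 without sham replicate 2, both past the threshold. Its partner Ruvbl1 had 8 and 8 UMIs, then 17 and 23 (log2 fold change 0.35, edgeR adjusted p = 0.50). The list of Snu13 and the assembly factors had 5 tested genes, 2 higher, 1 lower and 2 not past, with a median log2 fold change of 0.52, and per tube 4 were higher and 0 lower.

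Box H/ACA particles convert uridines of ribosomal RNA to pseudouridine, and Dkc1 (dyskerin) is their enzyme. Dkc1 (ENSMUSG00000031403, chrX:75095854-75109777, plus strand, 15 exons) had 15 and 7 UMIs in sham, then 29 and 34 after tenotomy. Its level was 65.3 and 31.7 CPM in sham and 75.4 and 68.9 CPM after tenotomy. Both tenotomy libraries were above both sham libraries, but sham replicate 1 came close to them, and the log2 fold change of 0.55 did not pass (SE 0.38, 95% interval -0.25 to 1.36, edgeR adjusted p = 0.25). It was 1.14 without sham replicate 1 (edgeR adjusted p = 0.085), 0.098 without sham replicate 2 (edgeR adjusted p = 0.89) and 1.51 per tube (edgeR adjusted p = 0.0076). The transcript shares 45 of its last 500 bases with Mpp1 on the other strand (10 and 17 UMIs, then 27 and 31).

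The other core proteins of these particles were tested too. Gar1 had 35 and 20 UMIs in sham, then 74 and 82 after tenotomy (log2 fold change 0.55, edgeR adjusted p = 0.087), and was the only call among the 4 genes of the H/ACA list that were tested. It was 0.94 without sham replicate 1 and did not pass without sham replicate 2 (0.19, edgeR adjusted p = 0.68) or without tenotomy replicate 1 (0.47, edgeR adjusted p = 0.20). Nop10 (0.55, edgeR adjusted p = 0.13) and Nhp2 (0.035, edgeR adjusted p = 0.94) did not pass. No H/ACA gene, Dkc1 included, passed as lower, whereas Nop58, Nop56 and Fbl of the C/D particle did; the difference between the particles was not tested.

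Ncl, Npm1 and Nolc1 encode abundant nucleolar phosphoproteins that bind nucleic acids, other nucleolar proteins or snoRNPs. Nucleolin, the product of Ncl (ENSMUSG00000026234, chr1:86344719-86359400, minus strand, 14 exons), acts in early processing of the precursor. Ncl had 169 and 190 UMIs in sham, then 205 and 196 after tenotomy, and its level was 736 and 861 CPM in sham and 533 and 397 CPM after tenotomy (798 ± 88.4 against 465 ± 96.2, SD, n = 2 each). Its share was thus lower in both tenotomy libraries while its number of captured UMIs was slightly higher. With counts thinned to the smallest library, its log2 fold change was -0.76 (edgeR adjusted p = 0.0024). On the TMM scale with all counts it was -0.79 (SE 0.18, 95% interval -1.16 to -0.42, edgeR adjusted p = 0.0017). It was 0.16 per tube (edgeR adjusted p = 0.41) and 0.040 with offsets for abundance (edgeR adjusted p = 0.86).

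Npm1 (ENSMUSG00000057113, chr11:33152287-33163206, minus strand, 11 exons) encodes nucleophosmin, a chaperone of histones and ribosomal proteins. It had 156 and 129 UMIs in sham, then 235 and 242 after tenotomy, and its level was 679 and 584 CPM in sham and 611 and 490 CPM after tenotomy. In UMIs both tenotomy libraries were above both sham libraries, and in CPM the groups overlapped. The log2 fold change of -0.21 did not pass (SE 0.17, 95% interval -0.56 to 0.15, edgeR adjusted p = 0.34). It was -0.35 without tenotomy replicate 1 and -0.0068 without tenotomy replicate 2. Without sham replicate 1 it was -0.12, and without sham replicate 2 it was -0.35. Per tube it was 0.74 (edgeR adjusted p = 0.0015) and with offsets for abundance 0.61 (edgeR adjusted p = 0.0013), both past the threshold as higher. Npm1 had 0.923 and 0.679 UMIs per Ncl UMI in sham and 1.15 and 1.23 after tenotomy, and 0.808 and 0.639 per Nop58 UMI in sham and 1.96 and 1.89 after tenotomy. Both ratios of UMIs were higher in both tenotomy libraries.

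Nolc1 (ENSMUSG00000015176, chr19:46075863-46085530, plus strand, 13 exons) encodes Nopp140, which binds both classes of snoRNP. It had 65 and 72 UMIs in sham, then 76 and 79 after tenotomy, and its level was 283 and 326 CPM in sham and 198 and 160 CPM after tenotomy. Both tenotomy libraries were lower in CPM and slightly higher in UMIs, with a log2 fold change of -0.78 (SE 0.19, 95% interval -1.19 to -0.37, edgeR adjusted p = 0.0036) that was 0.18 per tube and did not pass there. Of 5 other nucleolar genes tested, 2 were lower and 0 higher (median log2 fold change -0.22), and per tube 3 were higher and 0 lower (median 0.74). Nop53, a factor of late large-subunit processing, had 68 and 67 UMIs in sham, then 44 and 55 after tenotomy, and its level was 300 ± 5.32 CPM against 113 ± 2.14 CPM (log2 fold change -1.41, edgeR adjusted p = 3e-05), with -0.45 per tube (edgeR adjusted p = 0.19). Ddx21, a nucleolar RNA helicase, was at 526 ± 0.854 CPM in sham and 314 ± 6.03 CPM after tenotomy (log2 fold change -0.74, edgeR adjusted p = 0.0014), with -0.088 with offsets for abundance (edgeR adjusted p = 0.70) and 0.22 per tube.

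Polr1b (ENSMUSG00000027395, chr2:129100995-129126594, plus strand, 15 exons), the second-largest subunit of RNA polymerase I, had 5 and 3 UMIs in sham, then 8 and 7 after tenotomy, too few to be tested. In a fit without the filter on low counts, the log2 fold change was 0.030 with a 95% interval of -1.26 to 1.32 (edgeR adjusted p = 0.98 over 19353 genes). A change of about 2-fold either way was thus not excluded. Of 10 other genes of this polymerase and its factors that were tested, 1 was higher, 2 were lower and 7 did not pass (median log2 fold change -0.17), and per tube 6 were higher and 0 lower (median 0.79). Rrn3, the initiation factor that recruits the polymerase, had 21 and 20 UMIs in sham, then 66 and 71 after tenotomy (log2 fold change 0.78, edgeR adjusted p = 0.019). Twistnb, a polymerase subunit, was lower (153 ± 20.0 CPM, then 76.2 ± 24.7 CPM, log2 fold change -1.04, edgeR adjusted p = 0.0068), though not without tenotomy replicate 2 (-0.67, edgeR adjusted p = 0.12) or per tube (-0.086). Polr1d, a subunit shared with RNA polymerase III, was lower too (log2 fold change -0.54, edgeR adjusted p = 0.043), but -0.20 with offsets (edgeR adjusted p = 0.48) and 0.43 per tube. It was -0.81 without sham replicate 1 and did not pass without sham replicate 2 (-0.30) or without tenotomy replicate 1 (-0.41).

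Bop1 forms the PeBoW complex with Pes1 and Wdr12, which is needed to process the precursor of the large subunit. Bop1 (ENSMUSG00000022557, chr15:76452989-76477277, minus strand, 16 exons) had 16 and 12 UMIs in sham, then 56 and 76 after tenotomy, and its level was 69.6 and 54.4 CPM in sham and 146 and 154 CPM after tenotomy (62.0 ± 10.8 against 150 ± 5.87, SD, n = 2 each). It was the only gene of the 9 tested to pass as higher on the TMM scale, with both tenotomy libraries well above both sham libraries. The log2 fold change was 1.27 (SE 0.28, 95% interval 0.68 to 1.86, edgeR adjusted p = 0.0015), and between 1.06 and 2.23 in the 18 other settings, all past the threshold. Bop1 had 0.0976 and 0.075 UMIs per Myc UMI in sham and 0.566 and 0.633 after tenotomy.

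Other genes lie on the strand opposite to Bop1, and the strand setting of the counting was not stated. Mroh1 shares 50 of the last 500 bases of the Bop1 transcript, and it had fewer UMIs than Bop1 in every library (5 and 11 in sham, 5 and 3 after tenotomy). Scx, a tendon transcription factor gene that lies within Bop1 and shares no exon with it, had 1 and 2 UMIs in sham, then 40 and 61 after tenotomy. Its part in the Bop1 count was not tested. Pes1 was higher as well, with 9 and 11 UMIs in sham, then 33 and 55 after tenotomy (log2 fold change 1.16, SE 0.35, edgeR adjusted p = 0.013). Wdr12 had 11 and 11 UMIs in sham, then 12 and 18 after tenotomy (log2 fold change -0.51, SE 0.40, edgeR adjusted p = 0.31) and did not pass.

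**Figure D2:**
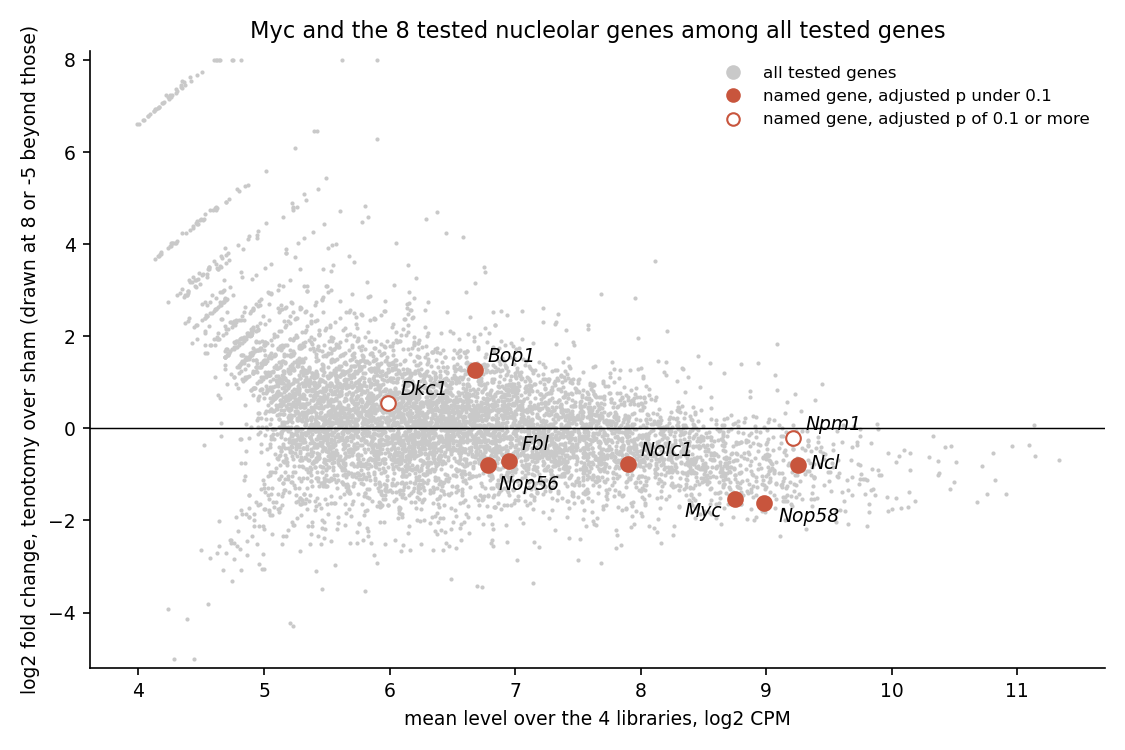
Log2 fold change after tenotomy (vertical axis, values beyond the axis drawn at its ends) against the mean level over the 4 libraries in log2 CPM (horizontal axis) for all 7228 genes tested (grey), with the 9 tested genes of the Myc and nucleolar group in red. Myc and Nop58 lie at -1.52 and -1.63, low among genes of high level, and Bop1 lies at 1.27; filled points passed the test and open points, Npm1 and Dkc1, did not.

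Fold changes followed abundance in these libraries, with abundant genes lower on average than rare ones, and the libraries differed in total UMIs. The 3 scales were therefore set side by side for the 9 tested genes. On the TMM scale 1 was higher and 6 lower. With offsets that remove the trend with abundance, 2 were higher (Bop1 and Npm1) and 5 lower (Nop58, -0.88; Myc, -0.85; Nop56, -0.81; Fbl, -0.68; and Nolc1, -0.41), where 21% and 22.2% of all genes were. As UMIs per tube, 3 were higher (Bop1, Dkc1 and Npm1) and 2 lower (Nop58 and Myc), where 62% and 4.58% of all genes were. Nop58, Myc and Bop1 thus had the same call on every scale.

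Relative to the median gene per tube, which stood at 1.01 on the log2 scale, 7 of the 9 were below it and 2 above. Nop58 lay 1.68 below it, Myc 1.58 below, Nop56 0.86 below, Ncl 0.85 below, Nolc1 0.83 below, Fbl 0.76 below and Npm1 0.27 below, whereas Dkc1 lay 0.50 above and Bop1 1.22 above. In TMM-normalized CPM the groups did not overlap for 8 of the 9 genes, where 72.9% of all genes tested did not overlap.

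**Figure D3:**
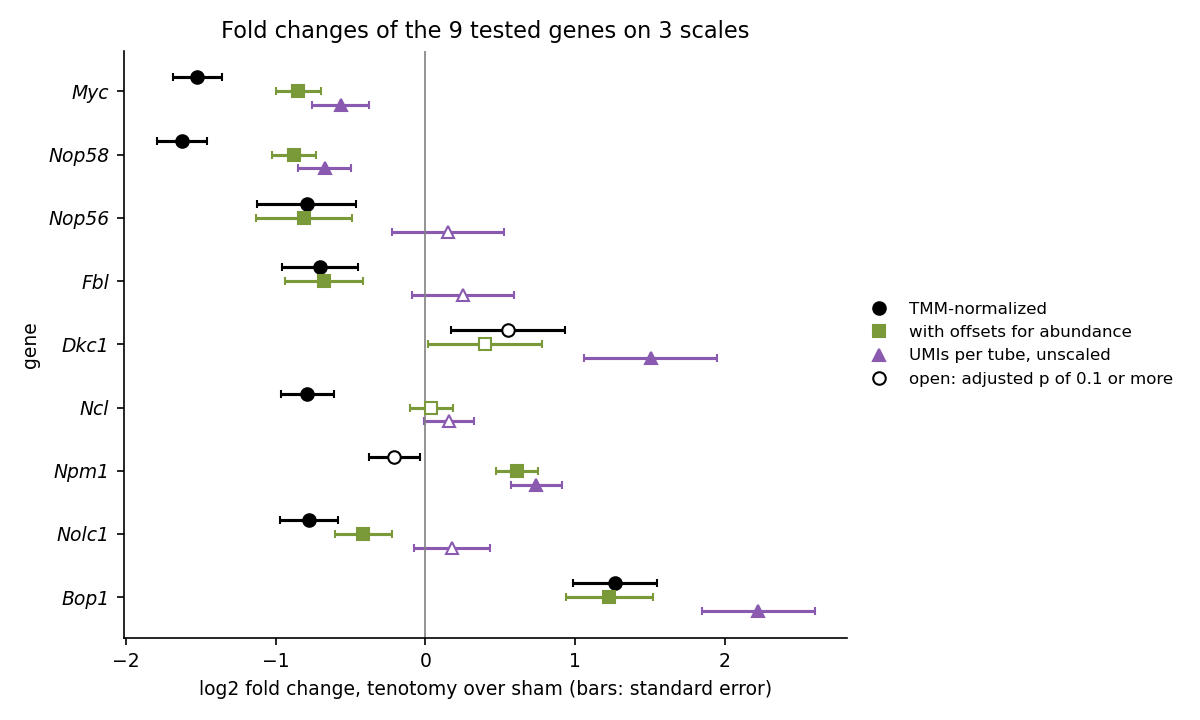
Log2 fold changes (tenotomy over sham, horizontal axis) with standard errors for the 9 tested genes (rows), on the TMM scale (black circles), with offsets for abundance (green squares) and as UMIs per tube without scaling (purple triangles); open symbols did not pass an adjusted p of 0.1. Nop58 and Myc are below 0 and Bop1 above 0 on all of the scales, and Npm1 goes from -0.21 to 0.74.

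Beyond these 10 genes, ribosome biogenesis genes moved in both directions. Over 127 further genes of 7 lists (RNA polymerase I, C/D and H/ACA particles, other nucleolar proteins, small-subunit and large-subunit assembly factors and the RNA exosome), 104 were tested, of which 20 were higher, 14 were lower and 70 did not pass, with a median log2 fold change of 0.063 on the TMM scale. Both shares were below those of all genes tested. Without sham replicate 2, 9 were higher and 8 lower, and without tenotomy replicate 1, 9 were lower. Per tube 68 were higher and 0 lower (median 1.02), beside a median of 1.01 over all genes, and with offsets 14 were higher and 14 lower. DESeq2 called 3 higher (Pno1, Ruvbl2 and Exosc1) and 3 lower (Nop53, Ddx21 and Gnl3), so the other calls of single genes of these lists were lost with it.

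Of 33 small-subunit assembly genes tested, 8 were higher, 5 were lower and 20 did not pass (median log2 fold change 0.15), with offsets 5 were higher and 5 lower, and per tube 23 were higher and 0 lower. Pno1, which is needed for late cleavage of the small-subunit RNA, had 9 and 4 UMIs in sham, then 61 and 73 after tenotomy (log2 fold change 2.39, SE 0.35, edgeR adjusted p = 4.7e-05). Dcaf13 (log2 fold change 1.55, edgeR adjusted p = 0.01) was higher too, with 2.69 without sham replicate 1, but did not pass without sham replicate 2 (0.89, edgeR adjusted p = 0.12). Nop14 (109 ± 12.6 CPM, then 48.3 ± 5.27 CPM, log2 fold change -1.18, edgeR adjusted p = 0.0067) and Tsr1 (log2 fold change -0.98, edgeR adjusted p = 0.014) were lower, but neither passed per tube, and Tsr1 did not pass without sham replicate 2 (-0.66).

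Of 40 large-subunit genes tested, 5 were higher, 4 were lower and 31 did not pass (median log2 fold change 0.032), and per tube 25 were higher and 0 lower. Beside Pes1, Rpf2, which brings the small RNA of the large subunit into the precursor, was higher (log2 fold change 1.05, edgeR adjusted p = 0.058), with 1.84 without sham replicate 2, but did not pass without sham replicate 1 (0.48), without tenotomy replicate 1 (1.03) or with offsets (0.77). Gnl3, which encodes nucleostemin, had 104 and 83 UMIs in sham, then 80 and 110 after tenotomy, and its level was 414 ± 54.2 CPM against 215 ± 10.4 CPM (log2 fold change -0.94, edgeR adjusted p = 4.4e-04), with 0.023 per tube. Surf6 was lower (log2 fold change -1.09, edgeR adjusted p = 0.039), a call lost whichever library was left out. Among 7 tested genes of the RNA exosome, which trims the precursors, 3 were higher and 0 lower, with Exosc1 going from 7 and 1 UMIs to 27 and 41 (log2 fold change 2.1, edgeR adjusted p = 0.0032, 3.96 without sham replicate 1 and 1.29 without sham replicate 2) and Exosc7 from 5 and 7 UMIs to 24 and 37 (log2 fold change 1.37, edgeR adjusted p = 0.014), though Exosc7 did not pass without sham replicate 1 (1.08).

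The proteins of the finished ribosome were compared as families. Of 77 cytosolic ribosomal protein genes tested, 60 were lower and 2 were higher on the TMM scale, with a median log2 fold change of -0.88. With offsets for abundance 26 were lower and 8 higher (median -0.20), and per tube 2 were lower and 19 higher (median 0.070). In sum the family had 10966 and 10437 UMIs in sham, then 11193 and 11345 after tenotomy. Of 64 mitochondrial ribosomal protein genes tested, 50 were higher and 3 lower on the TMM scale (median 1.34), 29 higher and 3 lower with offsets (median 0.76) and 60 higher and 0 lower per tube (median 2.29). This family had 599 and 606 UMIs in sham against 2005 and 2604 after tenotomy. Translation factors had 12 higher and 18 lower of 51 tested on the TMM scale (median -0.19), but 16 higher and 5 lower with offsets (median 0.25) and 34 higher and 2 lower per tube (median 0.77). The differences between these families, and between them and the 10 genes, were not tested.

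**Figure D4:**
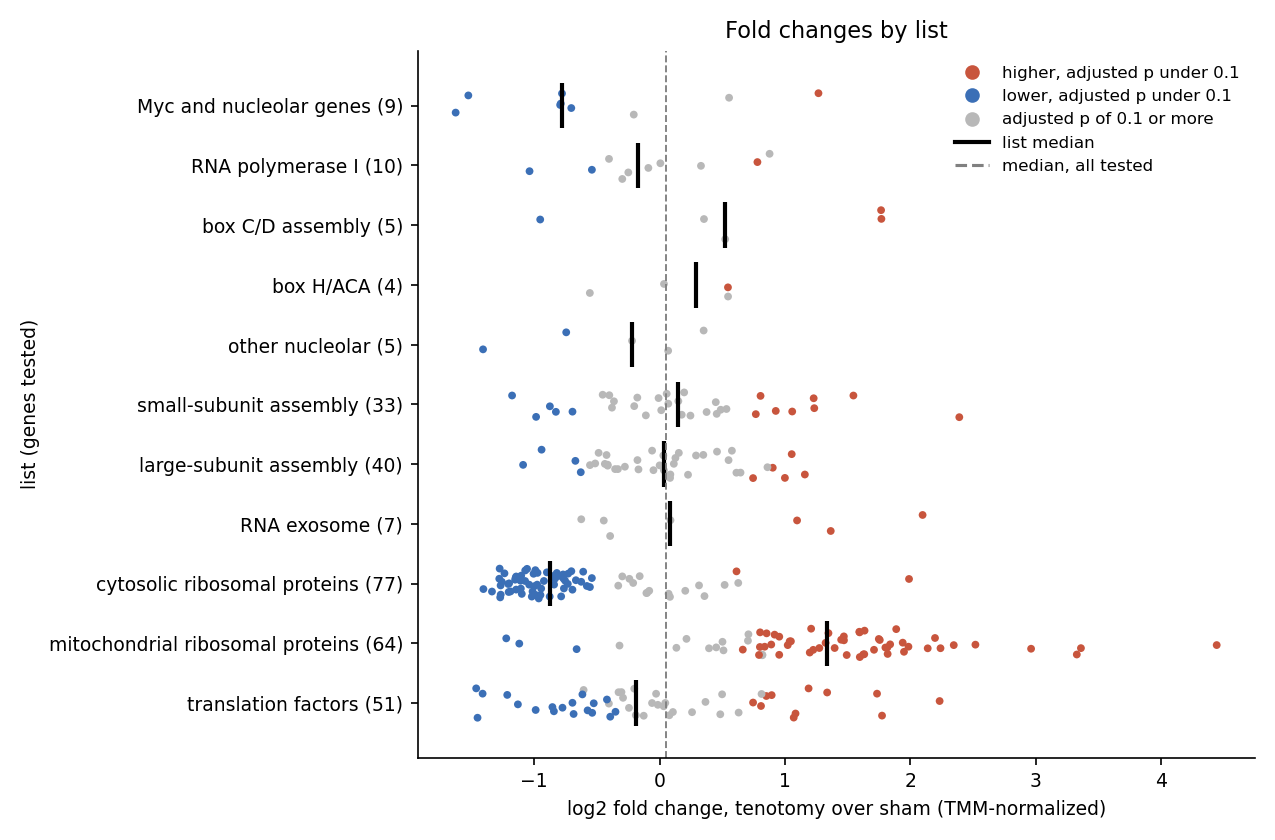
Log2 fold change after tenotomy on the TMM scale (horizontal axis) of each tested gene (points) by list (rows, with the number of genes tested), coloured by whether it passed as higher (red), as lower (blue) or not (grey); black bars are list medians and the dashed line is the median of all genes tested. The medians are -0.78 for Myc and the nucleolar genes, -0.88 for cytosolic and 1.34 for mitochondrial ribosomal proteins. Those of small-subunit (0.15) and large-subunit (0.032) assembly lie near the dashed line, and that of box C/D assembly is 0.52.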

How the data were processed

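MuSCs sorted by YFP were sequenced by CEL-Seq2. The authors extracted UMIs with UMI-tools (version 1.0.0), aligned reads to GRCm38 with HISAT2 (version 2.1.0), assigned them with featureCounts (version 1.6.4) and deposited UMI counts per gene and library, without normalization. The strand setting and annotation release are not given in the sources used here. All 19353 identifiers matched GENCODE M21. From the counts, genes were kept by filterByExpr (minimum count 10, minimum total 15), scaled by TMM (factors 0.909, 0.908, 1.08 and 1.12) and tested with edgeR (version 4.0.16, R version 4.3.3) by glmQLFit and glmQLFTest, adjusted p under 0.1, prior count 0.125. The common biological coefficient of variation was 9.50%. At an unadjusted p of 0.05, 3732 genes passed. Pairing was checked: replicate differences of the groups correlated at -0.037 over 4715 genes. Copies were found with BLAST (version 2.17.0, at least 250 bases at 90% identity). On simulated counts, 54.3% of 2-fold and 94.9% of 4-fold changes were found among 159 changed of 6951 genes tested, and 15 unchanged genes were called (11.3% of calls). DESeq2 (version 1.42.0) and limma-voom (limma version 3.58.1) were alternatives. Genes were named by rule: all 10, the 2 highest and 2 lowest calls of each list with no overlap and a mean of at least 10 counts, the tested genes of the Myc network, and the 5 most like Myc. Taf1c, Nme2 and Exosc6 were not analysed here. Mycn, Mycl, Ruvbl1, Nop10, Nhp2, Wdr12, Fbxw7 and genes that overlap or copy the 10 (Scx, Mroh1, Mpp1, Idh3b, Tulp4, Gm6211, Gm5812, AC122861.1, Gm27219 and Gm9432) were outside the rule and were named after their values were seen. The genes, lists and tests were chosen with earlier results of these data known. Another list of cell type markers is not reported here.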

Additional observations from a re-analysis of the deposited data

How the results depend on the processing

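With 2 libraries per group, a two-sided permutation of the labels cannot give a p below 0.333. Of simulated 2-fold changes 54.3% were found, but only 159 of 6951 genes tested were changed there, whereas 52.1% of genes passed in the data. The simulated share is therefore not the power for a 2-fold change in these data. Of 661 values of 37 named genes under 18 alternatives, 566 kept their direction and side of the threshold, 79 lost their call, 4 gained it and 12 changed sign. The 37 were the tested genes of the 10 and the calls named from the lists. Genes most like Myc, Myc network genes that did not pass and genes named outside the rule were not among them. Of 126 summary values, 104 kept within 1.5 times, or within the spread for the median; causes of the others were not tested. Per tube, 4481 genes were higher and 331 lower, 3 of the 10 genes were higher and 2 lower, 68 ribosome biogenesis genes were higher and 0 lower, and the median of the 9 tested genes was 0.18, with sign changes for Npm1 (0.74), Fbl (0.25), Nolc1 (0.18), Ncl (0.16), Nop56 (0.15), Mga (0.54), Polr1d (0.43), Ddx21 (0.22) and Gnl3 (0.023). With offsets for abundance, 2 of the 10 genes were higher, the median was -0.41, and Npm1 (0.61) and Ncl (0.040) changed sign. With library sizes alone, 2 of the 10 were higher and 4 lower, and the calls of Nop56 (-0.52) and Fbl (-0.43) were lost. There 6 ribosome biogenesis genes were lower, the median was -0.50 and Npm1 changed sign (0.069). DESeq2 called 762 genes higher and 1049 lower, with 3 ribosome biogenesis genes in each direction and 4 of the 10 genes lower. At an adjusted p under 0.05, 13 ribosome biogenesis genes were higher. Leaving out each library in turn gave 1 to 2 of the 10 genes higher and 4 to 7 lower, 9 to 21 ribosome biogenesis genes higher and 8 to 10 lower, a median of -0.91 to -0.53, and 1360 to 1668 genes higher and 1489 to 1720 lower, where the lone library of a group was assumed to vary like the other group. Calls made up of higher genes were 49.6% here, 66.6% with library sizes alone, 93.1% per tube and 57.6% without a filter, where the median log2 fold change of all genes was 0.051, 0.33, 1.01 and 0.30. Replicate differences of the groups were nearly uncorrelated (-0.037), which cannot exclude that libraries of the same number were paired. With the replicate number as a block 1806 genes were higher and 1864 lower, and 1 of the 10 genes was higher and 6 lower. In that fit 21 and 13 ribosome biogenesis genes were higher and lower, and the median stayed at -0.78. Mga and Snu13 lost their calls under the block.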
